A study of Mus musculus with 6 samples.

Results

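The members described here are 39 mouse genes that interferon induces or that serve antigen presentation, out of 55809 genes counted in RNA from HC11 cells. They were chosen by name, as genes listed for these roles, with earlier results of these data known, and each was found under its own symbol. HC11 is an established line of mouse mammary epithelial cells. Its cells were grown in medium with BMP7, a secreted ligand of the bone morphogenetic protein family (BMP7, 3 libraries), or in medium without it (Ctrl, 3 libraries), and poly(A) RNA was sequenced. All libraries come from this 1 line, the labels name no allele or transgene, and the sources used here do not say whether the libraries came from separate cultures. The study's methods describe HC11 cells that were starved and then given BMP7 for minutes or for hours, and do not say which exposure was used for sequencing. The p-values therefore measure the spread between these libraries, which may be technical.

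Interferons are secreted antiviral proteins. Type I interferon acts through receptors and Jak kinases on a factor that contains STAT2 and IRF9 and binds the interferon-stimulated response element (ISRE), whereas type II interferon acts mainly through the gamma-activated site (GAS). The genes so induced encode proteins that block viral replication, sensors of foreign RNA, and the machinery that cuts proteins into peptides and displays them on major histocompatibility complex (MHC) class I molecules. Most epithelial cells hold a low level of this program without infection and raise it when interferon is present.

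The members were placed by role in 5 classes. There were 19 antiviral effectors (*Isg15*, *Ifit1*, *Ifit2*, *Ifit3*, *Ifi44*, *Oas1a*, *Oas2*, *Oasl2*, *Mx1*, *Mx2*, *Rsad2*, *Usp18*, *Bst2*, *Ifitm1*, *Ifitm2*, *Ifitm3*, *Xaf1*, *Rtp4* and *Parp14*) and 3 sensors of viral RNA (*Ddx58*, *Ifih1* and *Dhx58*). A further 4 were transcription factors (*Irf1*, *Irf7*, *Irf9* and *Stat2*) and 4 were GTPases of cell-autonomous immunity (*Gbp2*, *Gbp3*, *Irgm1* and *Iigp1*). The remaining 9 act in MHC class I presentation (*H2-K1*, *H2-D1*, *B2m*, *Tap1*, *Tap2*, *Tapbp*, *Psmb8*, *Psmb9* and *Nlrc5*).

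The promoters of 5 members are shown because they hold the elements named above and include both members that were lower with BMP7 (*Irgm1*, *Gbp2* and *Irf1*) and members with no called change (*Isg15* and *Ifit1*). The windows are RefSeq sequence on GRCm38.p6, 250 bases before to 50 bases after the annotated start of transcription, and are printed on the gene's own strand. Capitals mark each match to an ISRE, searched as GAAA, any 2 bases and GAAA, or to a GAS, searched as TTCNNNGAA. Both strands were searched, so that an ISRE on the other strand reads TTTC, any 2 bases and TTTC, while the GAS reads the same on both. Matches of the 2 motifs were counted even where they overlapped. The *Irgm1* window spans chr11:48871371-48871670 on the minus strand and holds 2 overlapping ISRE matches, which begin 30 and 24 bases before the start. The *Gbp2* window spans chr3:142620413-142620712 on the plus strand, with an ISRE 59 bases before the start, and the upstream of 2 *Irf1* windows spans chr11:53769764-53770063 on the plus strand, with a GAS 90 bases before it. The other *Irf1* window, at a second annotated start, held neither element and is not shown. The *Isg15* window spans chr4:156200769-156201068 on the minus strand, with 3 overlapping ISRE matches that begin 78, 72 and 66 bases before the start. The *Ifit1* window spans chr19:34640639-34640938 on the plus strand and holds 2 ISRE matches, 104 and 85 bases before the start.
Irgm1: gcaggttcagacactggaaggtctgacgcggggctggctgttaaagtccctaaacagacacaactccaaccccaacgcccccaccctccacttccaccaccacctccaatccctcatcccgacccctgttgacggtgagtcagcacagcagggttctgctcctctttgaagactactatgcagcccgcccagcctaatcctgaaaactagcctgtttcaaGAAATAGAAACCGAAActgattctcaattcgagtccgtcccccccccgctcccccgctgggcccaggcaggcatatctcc
Gbp2: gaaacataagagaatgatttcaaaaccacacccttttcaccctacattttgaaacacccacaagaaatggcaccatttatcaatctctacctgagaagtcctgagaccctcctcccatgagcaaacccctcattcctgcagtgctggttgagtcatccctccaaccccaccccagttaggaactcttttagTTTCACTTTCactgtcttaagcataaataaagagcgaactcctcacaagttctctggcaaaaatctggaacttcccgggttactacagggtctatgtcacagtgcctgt
Irf1: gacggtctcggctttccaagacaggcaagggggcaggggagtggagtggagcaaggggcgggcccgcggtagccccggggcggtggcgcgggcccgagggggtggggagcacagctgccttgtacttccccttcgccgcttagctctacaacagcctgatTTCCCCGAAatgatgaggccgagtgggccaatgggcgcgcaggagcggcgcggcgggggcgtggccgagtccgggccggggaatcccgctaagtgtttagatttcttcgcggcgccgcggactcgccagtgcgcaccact
Isg15: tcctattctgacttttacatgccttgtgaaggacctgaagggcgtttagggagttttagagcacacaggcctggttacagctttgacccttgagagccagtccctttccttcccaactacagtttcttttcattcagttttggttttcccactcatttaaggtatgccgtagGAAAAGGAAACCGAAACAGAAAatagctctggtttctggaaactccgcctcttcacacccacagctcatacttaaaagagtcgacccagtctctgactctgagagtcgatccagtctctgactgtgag
Ifit1: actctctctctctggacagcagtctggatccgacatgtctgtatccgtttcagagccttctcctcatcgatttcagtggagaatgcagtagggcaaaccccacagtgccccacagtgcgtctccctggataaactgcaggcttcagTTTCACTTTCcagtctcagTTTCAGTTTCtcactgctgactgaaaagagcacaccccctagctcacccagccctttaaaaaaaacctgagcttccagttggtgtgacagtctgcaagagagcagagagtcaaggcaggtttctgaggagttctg

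A promoter window was available for 29 of the 39 members. An ISRE match was found in 15 of them (51.7%), against 3.99% of all 27025 genes with a window, and a GAS match in 6 (20.7%), against 9.55%. Among the members lower with BMP7 and matched to a window, 3 of 7 held an ISRE and 1 of 7 a GAS. Among the members tested and not called, 12 of 19 held an ISRE and 4 of 19 a GAS. Both elements thus lay in windows of members that were lower and of members with no called change, and a match describes the letters alone.

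Fragments were counted per gene on its exons. A library held between 14607938 counts (BMP7 replicate 1) and 23748970 counts (BMP7 replicate 3), with 19858701 to 20327200 in Ctrl. The BMP7 libraries are numbered 1, 3 and 4 and the Ctrl libraries 1, 2 and 3, as in the deposited counts. Epithelial markers summed to between 8072 and 8224 CPM (counts scaled to the library size after TMM normalization) in Ctrl. With BMP7 the sum was higher in every library, at 9849, 8516 and 8829 CPM in replicates 1, 3 and 4. In every library *Krt5*, *Krt14*, *Cdh1* and *Epcam* stood at 460.3 CPM or more, and the milk protein gene *Csn2* had at most 1 count. Single epithelial markers changed within this sum. Of 8 tested, *Krt14* and *Trp63* were called higher with BMP7 (log2 fold change 0.43 and 0.64). *Epcam*, *Cdh1* and *Krt18* were called lower (-0.42, -0.27 and -0.67). BMP7 replicate 1 stood apart in markers of other cells. Its 20 macrophage markers summed to 82.2 CPM, against 37.6 and 36.0 CPM in BMP7 replicates 3 and 4 and 79.9 to 85.7 CPM in Ctrl, and 13 adipocyte markers summed to 83.4 CPM, against 156.9 and 138.9 CPM in BMP7 replicates 3 and 4 and 47.1 to 62.4 CPM in Ctrl.

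With BMP7, 8 members were lower and none was higher. The genes that fell belong to every role, with *Oasl2*, *Xaf1* and *Parp14* among the effectors, *Ddx58* among the sensors, *Irf1* among the factors, *Gbp2* and *Irgm1* among the GTPases and *Tap1* in antigen presentation. The falls were small. *Ddx58* fell by 19.3%, the least of them, and *Oasl2* fell by 39.5%, the most. Genes were tested with the quasi-likelihood test of edgeR, with p-values adjusted by Benjamini-Hochberg over 15733 genes that passed its expression filter, and were called at an adjusted p below 0.05 and a fold change above 1.2. Of the 39 members, 33 were tested. Those called lower made up 24.2% of the tested members, against 5.38% of all genes tested, and the 0 called higher stand against 5.99% of all genes tested. At an unadjusted p below 0.05, edgeR had 15 members lower and 0 higher, against 13.1% of all genes in each direction, and DESeq2 called 8 lower and 0 higher, against 4.70% and 5.88% of all genes.

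**Figure D1:**
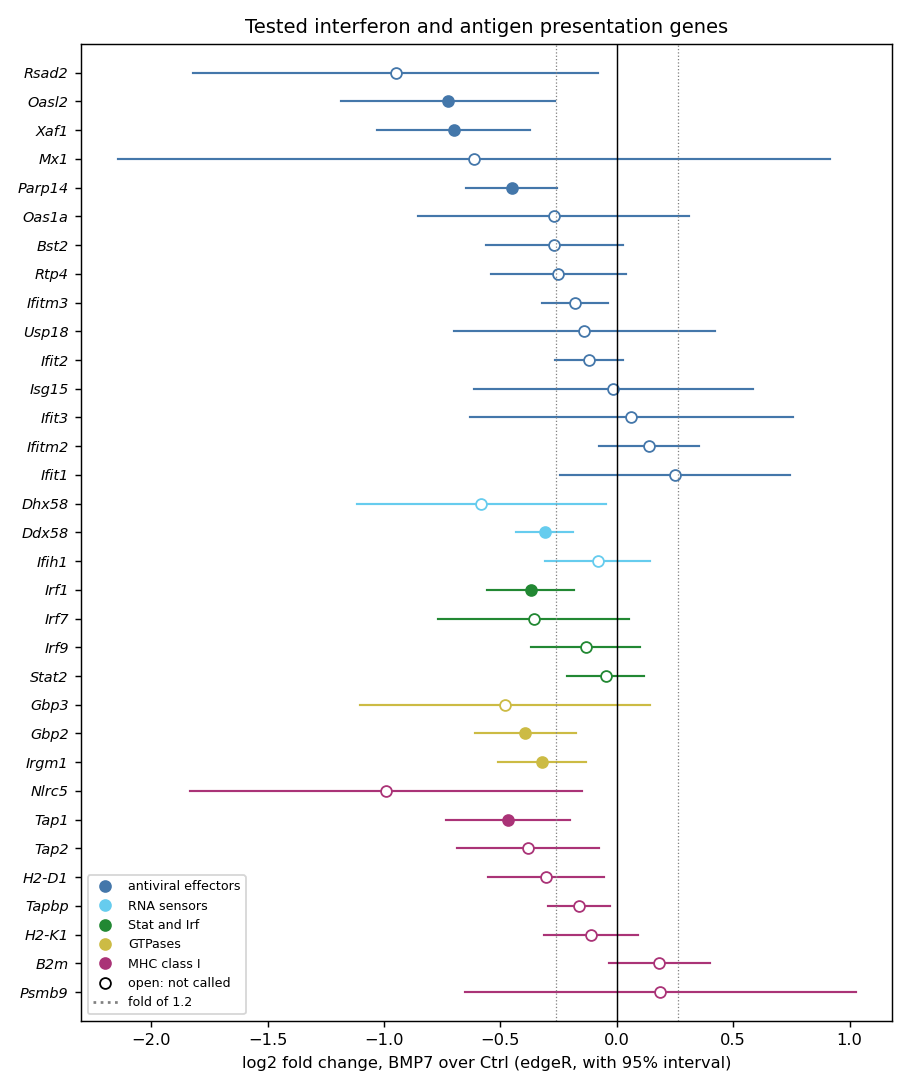
Log2 fold change of each tested member, BMP7 over Ctrl (horizontal axis), with the 95% interval of the edgeR fit, coloured by role, and filled where called. The filled points lie to the left of 0, between -0.72 and -0.31, and the open points reach from -0.99 (*Nlrc5*) to 0.25 (*Ifit1*).

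The log2 fold change (BMP7 over Ctrl) was under 0 for 28 of 33 tested members (84.8%), against 51.4% of all genes tested. Its median was -0.27 over the tested members and -0.0062 over all genes tested. In 15 tested members every BMP7 library lay below every Ctrl library (45.5%), against 15.1% of all genes, and in 0 members did every BMP7 library lie above, against 14.8%. With 3 libraries against 3, the exact permutation test of a single gene cannot go below p = 0.1, and each of the 8 called members reached that value.

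**Figure D2:**
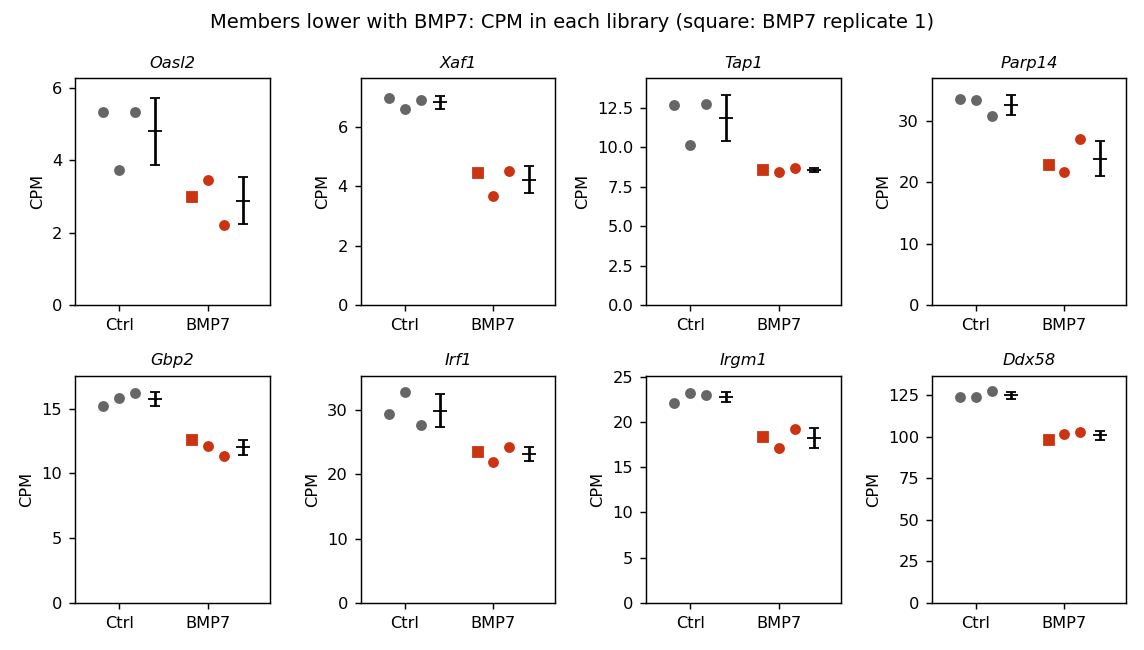
CPM (vertical axes, each from 0) in each library for the 8 members called lower, with Ctrl in grey and BMP7 in red, a square for BMP7 replicate 1, and bars for the mean and SD of 3 libraries. In each panel the BMP7 points lie below the Ctrl points, with the smallest gap for its level in *Oasl2*, between 3.74 CPM in Ctrl replicate 2 and 3.47 CPM in BMP7 replicate 3.

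*Oasl2* (chr5:115034997-115050295 in the mm39 annotation of the deposited counts) encodes an oligoadenylate synthetase-like antiviral protein. It stood at 5.34, 3.74 and 5.33 CPM in Ctrl replicates 1, 2 and 3 and at 3.00, 3.47 and 2.2 CPM in BMP7 replicates 1, 3 and 4. The groups did not overlap, although Ctrl replicate 2 and BMP7 replicate 3 were close. The log2 fold change was -0.72 (SE 0.22, adjusted p = 0.0351). The call did not hold without Ctrl replicate 1 (adjusted p = 0.134), Ctrl replicate 3 (0.122), BMP7 replicate 1 (0.0564) or BMP7 replicate 4 (0.117).

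*Xaf1* (chr11:72192455-72204559) encodes a partner of the apoptosis inhibitor XIAP and is induced by interferon. Its CPM was 6.98, 6.59 and 6.90 in Ctrl and 4.46, 3.69 and 4.52 with BMP7. Every BMP7 library lay well under the Ctrl libraries, and the log2 fold change was -0.70 (SE 0.16, adjusted p = 0.00571). *Parp14* (chr16:35653244-35691914), an ADP-ribosyltransferase, stood at 33.5, 33.5 and 30.8 CPM in Ctrl and at 22.8, 21.6 and 27.1 CPM with BMP7. BMP7 replicate 4 was nearest to Ctrl, and the log2 fold change was -0.45 (SE 0.09, adjusted p = 0.00306). Both genes kept their call without any single library.

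*Ddx58* encodes RIG-I, the helicase that detects viral RNA in the cytoplasm (chr4:40203773-40239828). It was the most abundant of the called members per exon length, at 48.4 TPM (a level scaled to library size and to the deposited exon length) in Ctrl and 36.1 TPM with BMP7. Its CPM was 123.6, 123.9 and 127.2 in Ctrl and 97.9, 101.8 and 102.6 with BMP7. The libraries of each group lay close together, and the log2 fold change of -0.31 had the lowest adjusted p of the members (SE 0.06, adjusted p = 0.00145). The other RNA sensors were not called. *Ifih1*, which encodes the sensor MDA5, had a log2 fold change of -0.083 (95% interval -0.31 to 0.14). *Dhx58*, which encodes the regulatory helicase LGP2, had -0.58 (95% interval -1.12 to -0.05), and its BMP7 libraries (1.46, 2.40 and 1.82 CPM) lay below those of Ctrl (2.46, 2.75 and 3.47 CPM).

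Of the transcription factors, *Irf1* fell and the others were not called. *Irf1*, the interferon regulatory factor that drives many antigen presentation genes, lies at chr11:53660841-53669200 and shares 20% of its exon bases with *Gm17334*, on which fragments were not counted for either gene. It stood at 29.3, 32.7 and 27.7 CPM in Ctrl and at 23.4, 22 and 24.2 CPM with BMP7, without overlap. The log2 fold change was -0.37 (SE 0.09, adjusted p = 0.00915), and the call did not hold without Ctrl replicate 2 (adjusted p = 0.0702). *Stat2* and *Irf9*, whose products act in the factor that binds the ISRE, had log2 fold changes of -0.047 (95% interval -0.22 to 0.12) and -0.13 (95% interval -0.37 to 0.10). For *Irf9*, BMP7 replicates 1 and 3 (13.2 and 13.6 CPM) lay below Ctrl (15.6 to 16.6 CPM) and BMP7 replicate 4 above it (16.8 CPM). *Irf7*, the factor that amplifies type I interferon, had -0.36 (95% interval -0.77 to 0.05), with 5.15, 4.42 and 3.57 CPM in Ctrl and 3.62, 3.51 and 3.14 CPM with BMP7.

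The GTPases belong to families that act against intracellular pathogens. Of 3 tested, 2 were lower (66.7%), against 5.38% of all genes tested, in a class too small to be read on its own. *Gbp2* (chr3:142326363-142343769), a guanylate-binding protein, stood at 15.2, 15.8 and 16.2 CPM in Ctrl and at 12.6, 12.1 and 11.3 CPM with BMP7. Its log2 fold change was -0.39 (SE 0.10, adjusted p = 0.0168), and the call did not hold without Ctrl replicate 2 (adjusted p = 0.0565), Ctrl replicate 3 (0.0659) or BMP7 replicate 4 (0.0522). *Irgm1* (chr11:48752795-48762510), an immunity-related GTPase, stood at 22.1, 23.2 and 22.9 CPM in Ctrl and at 18.4, 17.1 and 19.3 CPM with BMP7. Its log2 fold change was -0.32 (SE 0.09, adjusted p = 0.0237), and the call did not hold without Ctrl replicate 2 (adjusted p = 0.0902), Ctrl replicate 3 (0.0727) or BMP7 replicate 3 (0.110). In both genes the groups did not overlap. *Gbp3* had a log2 fold change of -0.48 (95% interval -1.10 to 0.14), and *Iigp1*, with 7 to 12 counts in Ctrl and 4 to 9 with BMP7, was not tested.

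In the MHC class I pathway 1 of 8 tested members was lower (12.5%), against 5.38% of all genes tested. A single call among 8 genes gives no result about the class. *Tap1* encodes a subunit of the transporter that carries peptides into the endoplasmic reticulum. The gene lies at chr17:34406527-34416199, back to back with *Psmb9*, with which it shares 3.87% of its exon bases. It stood at 12.7, 10.2 and 12.7 CPM in Ctrl and at 8.57, 8.44 and 8.70 CPM with BMP7. The BMP7 libraries were nearly equal and all under Ctrl, and the log2 fold change was -0.47 (SE 0.12, adjusted p = 0.019). The call did not hold without Ctrl replicate 1 (adjusted p = 0.0812), Ctrl replicate 3 (0.0836) or BMP7 replicate 3 (0.0678). The log2 fold change of *Tap2*, the other subunit, was -0.38 (adjusted p = 0.0947). Its libraries did not overlap, with 7.37, 7.82 and 7.48 CPM in Ctrl and 5.30, 5.51 and 6.56 CPM with BMP7. *Tapbp*, which bridges the transporter and the class I molecule, had -0.16 (adjusted p = 0.107), again without overlap. *Tap2* and *Tapbp* share 18.5% and 33.1% of their exon bases with other genes, on which fragments were not counted.

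The class I heavy chains and their light chain were not called. *H2-D1* had a log2 fold change of -0.30 (95% interval -0.55 to -0.06, adjusted p = 0.104). Its Ctrl libraries stood at 16.6, 15.9 and 15.7 CPM, and BMP7 replicate 1 at 15.6 CPM lay close to them, whereas BMP7 replicates 3 and 4 stood at 11.6 and 12.1 CPM. Without BMP7 replicate 1 the gene was called lower (log2 fold change -0.44, adjusted p = 0.0155). *H2-K1* had -0.11 (95% interval -0.31 to 0.09), with 24.2, 25.7 and 23.1 CPM in Ctrl and 25.5, 22.1 and 20.3 CPM with BMP7. *B2m*, which encodes the light chain beta-2 microglobulin, had 0.18 (95% interval -0.04 to 0.40). Its BMP7 libraries ranged from 224.4 to 326.2 CPM and overlapped those of Ctrl (220.5 to 264.4 CPM). Without BMP7 replicate 4, *B2m* was called higher (log2 fold change 0.31, adjusted p = 0.0235), which made it the sole member called higher when a library was left out.

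*Nlrc5*, the transactivator of MHC class I genes, had the lowest log2 fold change of the tested members, at -0.99, on few counts. It held 21, 23 and 22 counts in Ctrl and 10, 7 and 12 with BMP7. No BMP7 library reached the Ctrl libraries, but the interval was wide (95% interval -1.83 to -0.15, adjusted p = 0.118). *Psmb8*, a subunit of the immunoproteasome that trims antigens, held 4, 5 and 4 counts in Ctrl and 7, 7 and 6 with BMP7 and was not tested. *Psmb9*, its partner subunit, had a log2 fold change of 0.19 (95% interval -0.65 to 1.03).

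The genes most often read for interferon exposure, *Isg15* and *Ifit1*, were not called. *Isg15*, a ubiquitin-like modifier, stood at 1.83, 1.38 and 1.91 CPM in Ctrl and at 1.32, 1.91 and 1.76 CPM with BMP7, with a log2 fold change of -0.015 (95% interval -0.61 to 0.58). *Ifit1*, which binds viral RNA, stood at 1.93, 2.16 and 2.15 CPM in Ctrl and at 2.58, 2.13 and 2.75 CPM with BMP7, with 0.25 (95% interval -0.25 to 0.74). The groups overlapped in both genes. *Isg15*, *Ifit1* and *Ifit3* had at most 50 counts in any library, so that a change within these intervals was not detectable at this depth. *Ifit2* had many more counts (797 to 1252) and a log2 fold change of -0.12 (95% interval -0.27 to 0.03). *Rsad2*, which encodes viperin, had -0.95 (95% interval -1.82 to -0.08), with 1.49, 0.98 and 1.42 CPM in Ctrl and 1.18, 0.53 and 0.39 CPM with BMP7. BMP7 replicate 1 lay among the Ctrl libraries, and without it the gene was called lower (log2 fold change -1.47, adjusted p = 0.0361).

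The other tested effectors were *Ifit3*, *Ifitm2*, *Ifitm3*, *Usp18*, *Bst2*, *Rtp4*, *Oas1a* and *Mx1*. None was called, and their log2 fold changes ranged from -0.61 for *Mx1* to 0.14 for *Ifitm2*. The libraries of *Bst2* (tetherin, which holds virions at the cell surface) and *Ifitm3* (which blocks viral entry) did not overlap. *Bst2* stood at 10.4, 9.49 and 9.44 CPM in Ctrl and at 9.34, 6.76 and 8.54 CPM with BMP7. *Ifitm3* stood at 78.2, 85.7 and 78.8 CPM in Ctrl and at 76.1, 68.7 and 69.9 CPM with BMP7. BMP7 replicate 1 was the nearest to Ctrl in both genes.

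Some members share sequence with other genes. In GENCODE vM21 transcripts, 100% of *Oas1a* matched *Oas1g* and 97.4% of *Ifit3* matched *Ifit3b* at a high identity, as did 66% of *Ifitm2* with *Gm11951* and 63.8% of *Isg15* with *AC151275.1*. Fragments that mapped to several places were left out of the counts, so the values of these 4 genes are uncertain. In the annotation of the counts, *Ifitm2* also shares 40.9% of its exon bases with *Gm45717*, on which fragments were not counted. *H2-D1* matched *H2-Q7* over 13.3% of its length. HC11 came from BALB/c mice and the reference is that of C57BL/6, whose class I alleles differ.

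A further 6 members had too few counts to be tested. *Ifitm1*, a restriction factor at the cell surface, had 10, 9 and 7 counts in Ctrl and 0, 2 and 1 with BMP7. *Oas2*, a synthetase of the signal that activates RNase L, had 7, 12 and 10 counts in Ctrl and 3, 2 and 2 with BMP7. In these 2 genes the BMP7 libraries were at or under 3 counts and the Ctrl libraries above it, and with no filter on low counts edgeR called *Ifitm1* lower (adjusted p = 0.0349) and not *Oas2*. *Mx2* had 5 to 9 counts in Ctrl and 4 to 10 with BMP7, and *Ifi44* 6 to 8 and 6 to 13. The others were *Psmb8* and *Iigp1*, given above.

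**Figure D3:**
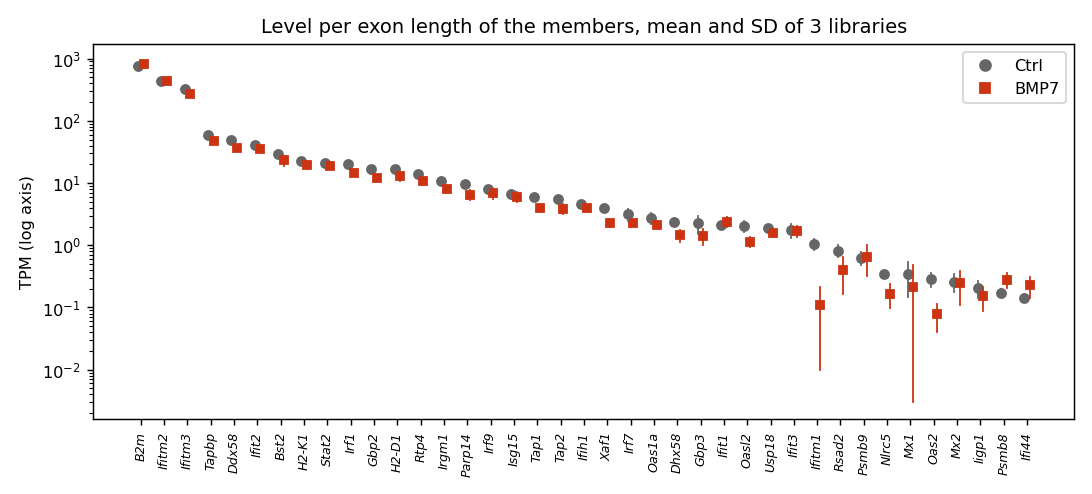
Mean TPM of each member (log axis) in Ctrl (grey) and with BMP7 (red), with bars for the SD of 3 libraries, ordered by the Ctrl level. In Ctrl the levels run from 771.7 TPM for *B2m*, which stands at 806.6 TPM with BMP7, to 0.14 TPM for *Ifi44*, and the 3 highest stand apart from the rest.

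The members covered a wide range of levels. In Ctrl, *B2m* was highest at 771.7 ± 40.8 TPM (SD, n = 3), followed by *Ifitm2* at 432.3 ± 36.6 and *Ifitm3* at 325.9 ± 20.1, and these did not overlap within 1 SD. *Tapbp* (58.3 TPM), *Ddx58* (48.4 TPM) and *Ifit2* (41.4 TPM) came next. *Isg15* lay in the middle of the order at 6.62 ± 1.11 TPM, *Ifit1* lower at 2.14 ± 0.08 TPM and *Nlrc5* at 0.34 ± 0.02 TPM. The lowest were *Psmb8* at 0.17 ± 0.02 TPM and *Ifi44* at 0.14 ± 0.02 TPM, which overlapped within 1 SD. TPM divides by the length of all annotated exons of a gene, so that a gene with long unused exons has a lower value.

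**Figure D4:**
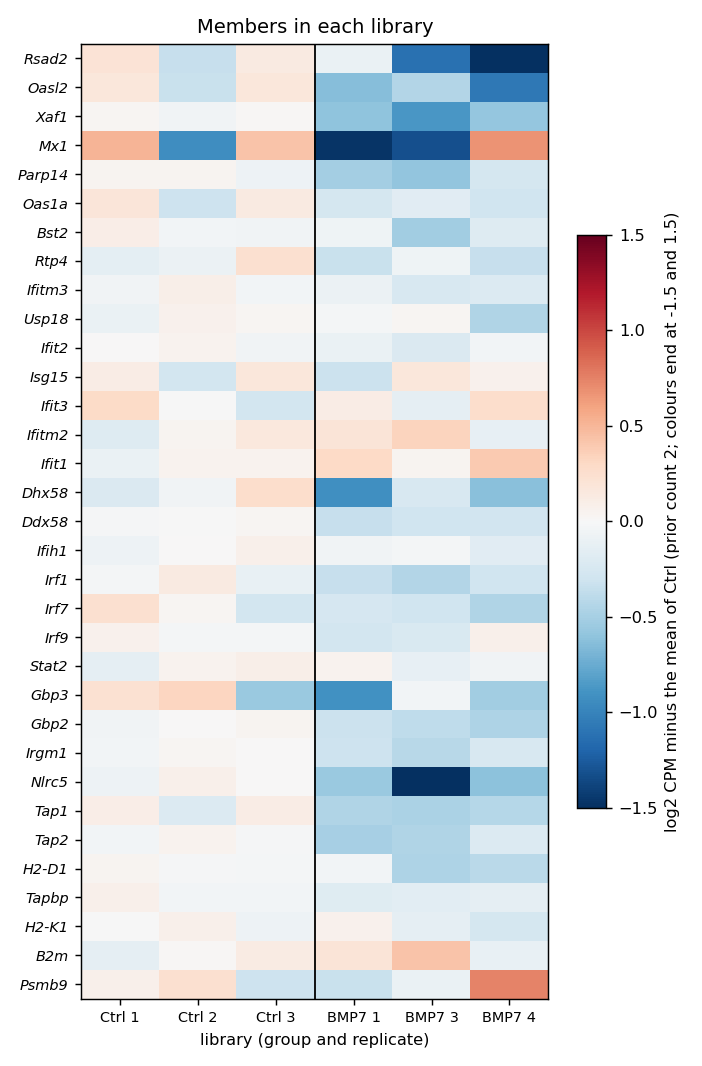
Log2 CPM of each tested member in each library minus its mean over the Ctrl libraries (colour, blue for lower, ending at -1.5 and 1.5), with Ctrl to the left of the line. The columns of BMP7 replicates 1, 3 and 4 are mostly blue, with medians of -0.27, -0.23 and -0.26.

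In these genes BMP7 replicate 1 was low, as the other BMP7 libraries were. It lay below every Ctrl library in 22 of 33 tested members (66.7%), against 34.9% of all genes tested. BMP7 replicates 3 and 4 did so in 21 members each (63.6%), against 35.3% and 31.3%. The median log2 difference of the members from the Ctrl mean was -0.27, -0.23 and -0.26 in BMP7 replicates 1, 3 and 4. BMP7 replicate 1 stood on the other side of the Ctrl minimum from both other BMP7 libraries in 6 members. In *Rsad2*, *Irf7* and *H2-K1*, replicates 3 and 4 lay below Ctrl and replicate 1 within it, and in *Isg15*, *Gbp3* and *Psmb9*, replicate 1 lay below Ctrl and the others did not. In 12 more members the BMP7 libraries followed other patterns, such as *Irf9*, in which replicate 4 was the one above Ctrl. In a fit of BMP7 replicate 1 alone against Ctrl, which takes its spread from the other libraries, the log2 fold changes of *Parp14* and *Ddx58* were -0.52 and -0.35.

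Macrophages and plasmacytoid dendritic cells express many of these genes strongly. The macrophage sum lay within the Ctrl range in BMP7 replicate 1 (82.2 CPM) and below it in BMP7 replicates 3 and 4. Of 16 tested macrophage markers, of 20 listed, 5 were called lower (*Lyz2*, *Ptprc*, *Itgam*, *Cd14* and *Cybb*) and 0 higher. Each of these 5 lay below every Ctrl library in BMP7 replicate 1 as well, a pattern that a call favours, and so did *Spi1*, not called. The other tested markers did not. In BMP7 replicate 1, *Mpeg1* (13.2 CPM), *Ctss* (3.69), *Fcer1g* (3.62), *Tyrobp* (1.53) and *Cd68* lay above every Ctrl library. *Csf1r*, *Adgre1*, *C1qb*, *Laptm5* and *Fcgr3* lay within the Ctrl range there. The panel did not fall uniformly. *Cd68* stood at 11.6, 11.4 and 10.9 CPM in Ctrl and at 15.6, 13.0 and 12.4 CPM with BMP7 (log2 fold change 0.27, not called). *C1qa* and *Mrc1*, not tested, had higher means with BMP7 on at most 12 counts in a library. None of the 20 was at or under 3 counts in every library, with *Lyz2* at 25.5 to 26.6 CPM in Ctrl and at 22.5, 6.76 and 6.94 CPM in BMP7 replicates 1, 3 and 4. Among the 33 tested members, 9 were highest in replicate 1 of the BMP7 libraries (*Rsad2*, *Bst2*, *Ifitm3*, *Irf7*, *Stat2*, *Gbp2*, *H2-K1*, *H2-D1* and *Nlrc5*). The other tested members were highest in replicate 3 or 4, and the same share over all genes tested was not computed. The part of the macrophage signal in the members' values was not tested. In bulk RNA, fewer cells of a type and less RNA per cell cannot be told apart. The lymphocyte markers *Cd3e*, *Cd4*, *Cd8a*, *Ms4a1*, *Nkg7* and *Klrb1c* were at or under 3 counts in every library, *Cd3g* had at most 4 counts and *Cd79a* 3 to 8. Of the markers of plasmacytoid dendritic cells, the main makers of type I interferon, *Siglech* and *Ccr9* were at or under 3 counts, *Irf8* had at most 5 counts and *Ly6c2* 10 to 36. *Tcf4*, which many cell types express, stood at 158.7 to 183.3 CPM, and *Bst2* is a member.

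The rest of the pathway was read from 173 further genes in 6 lists, of which 126 were tested, 8 were higher and 18 lower. Those lower made up 14.3% of the tested genes, against 5.38% of all genes tested, and 5.99% of all genes tested were higher. No interferon gene was expressed at a level that could be tested. Of 18 interferon ligand genes, 5 had any count, and none had more than 2 counts in a library. Of 22 genes of the interferon receptors and Jak-Stat signaling, 21 were tested, 1 was higher and 1 lower. The share lower was 4.76%, under that of all genes tested. *Irf5*, a factor that acts downstream of Toll-like receptors, rose from 11, 10.9 and 12.1 CPM in Ctrl to 18.8, 18.4 and 19.0 CPM with BMP7 (log2 fold change 0.72, adjusted p = 7.97e-05). The kinase gene *Tyk2* fell by 0.30 on the log2 scale (adjusted p = 0.0122).

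**Figure D5:**
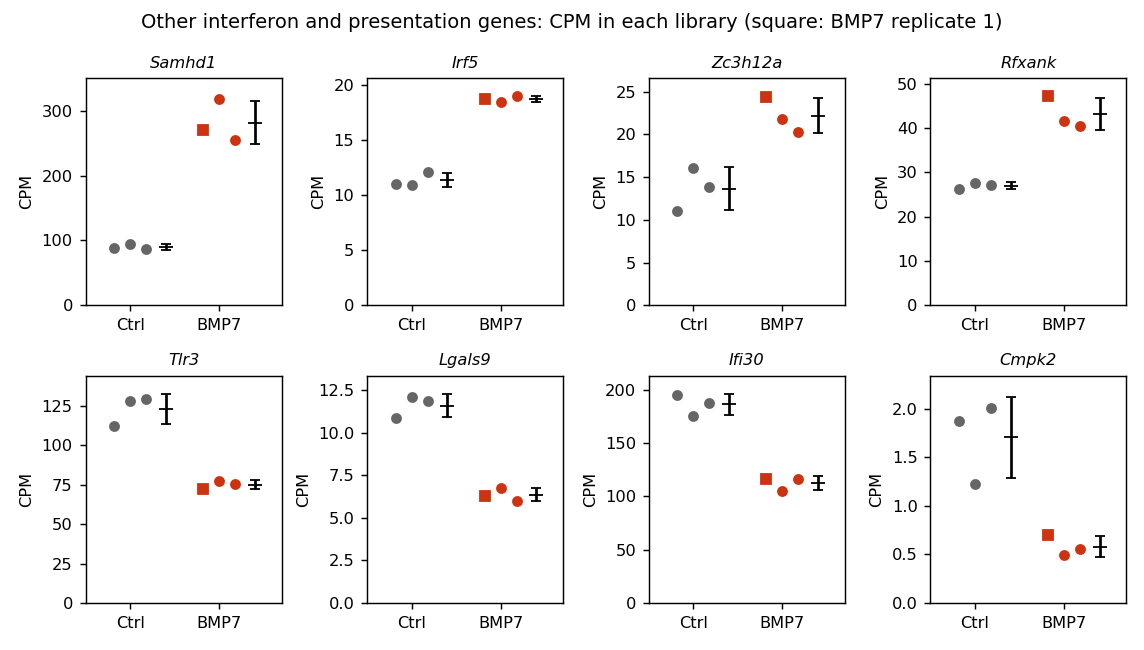
CPM (vertical axes, each from 0) in each library for 8 called genes of the pathway that are no members, with Ctrl in grey and BMP7 in red, a square for BMP7 replicate 1, and bars for the mean and SD of 3 libraries. *Samhd1*, *Irf5*, *Zc3h12a* and *Rfxank* lie above Ctrl in every BMP7 library, and *Tlr3*, *Lgals9*, *Ifi30* and *Cmpk2* below it.

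Among 23 genes of nucleic acid sensing, 19 were tested, 3 were higher and 1 lower (5.26%), against 5.99% and 5.38% of all genes tested. *Samhd1*, a dNTP hydrolase that restricts viruses and is itself induced by interferon, rose from 88.5, 94.2 and 86.1 CPM in Ctrl to 270.9, 318.3 and 255.0 CPM with BMP7. Its change, a fold of 3.14 (log2 fold change 1.65, SE 0.08, adjusted p = 3.18e-10), was the largest rise among the 159 tested genes of the pathway, members included. *Zc3h12a*, an RNase that degrades inflammatory mRNA, rose by a log2 fold change of 0.70 (adjusted p = 9.43e-04), and the Toll-like receptor adaptor gene *Ticam1* by 0.30 (adjusted p = 0.0308). *Tlr3*, the receptor for double-stranded RNA, fell from 112.1, 128.0 and 129.3 CPM to 72.3, 77.5 and 75.6 CPM (log2 fold change -0.71, adjusted p = 1.55e-06).

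A list of 65 other interferon-stimulated genes, also chosen with earlier results of these data known, was read. Of 51 tested, 13 were lower (25.5%) and 0 higher, against 5.38% and 5.99% of all genes tested. Because of how the list was chosen, its shares are no independent test of the members' pattern. The interferon-induced *Samhd1*, higher with BMP7, was listed under nucleic acid sensing and is not counted here. A log2 fold change under 0 was found in 44 (86.3%), against 51.4% of all genes, and the median was -0.30. At an unadjusted p below 0.05, edgeR had 21 of them lower and 2 higher, against 13.1% of all genes in each direction. DESeq2 called 11 lower and 0 higher, against 4.70% and 5.88% of all genes. The lowest were *Oas3*, a synthetase of the same family as *Oas1a* (log2 fold change -1.66, adjusted p = 0.0157), and *Cmpk2*, a mitochondrial nucleotide kinase next to *Rsad2* (-1.57, adjusted p = 0.00641). *Oas3* held 21 to 33 counts in Ctrl and 5 to 9 with BMP7, and *Cmpk2* 25 to 41 and 10 to 11. *Ifi30*, a thiol reductase of antigen processing, had far more counts and stood at 195.7, 175.9 and 187.6 CPM in Ctrl and at 116.5, 104.8 and 116.3 CPM with BMP7 (log2 fold change -0.73, adjusted p = 6.95e-07). The galectin gene *Lgals9* (-0.86, adjusted p = 1.32e-04), *Slfn2* (-0.69, adjusted p = 0.0263) and the helicase gene *Ddx60* (-0.65, adjusted p = 0.0478) were lower as well.

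The other genes of antigen presentation were called in both directions. Of 34 listed for MHC class I and presentation, 31 were tested, 4 were higher and 3 lower (9.68%), against 5.99% and 5.38% of all genes tested. Their median log2 fold change was 0.018. The chaperone genes *Calr* (log2 fold change 0.53, adjusted p = 6.21e-04) and *Hspa5* (0.41, adjusted p = 2.49e-04), whose products fold proteins of many kinds in the endoplasmic reticulum, were higher. *Rfxank*, a subunit of the factor that binds MHC promoters, was higher too (0.67, adjusted p = 1.63e-05) and shares 33.8% of its exon bases with *Nr2c2ap*. The immunoproteasome subunit gene *Psmb10* (-0.47, adjusted p = 0.0126), the class I-like gene *H2-T22* (-0.29, adjusted p = 0.0491) and *Fcgrt*, which encodes the neonatal Fc receptor (-0.51, adjusted p = 0.0424), were lower. The libraries of *Fcgrt* overlapped between the groups. Of 11 MHC class II genes, 4 were tested and 0 called by edgeR or DESeq2, and 0 had an unadjusted p below 0.05.

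Of the genes named from these lists, *Irf5*, *Samhd1*, *Zc3h12a*, *Tlr3*, *Cmpk2*, *Lgals9*, *Ifi30*, *Rfxank*, *Calr* and *Hspa5* kept their call without any single library. The call did not hold for *Tyk2* without Ctrl replicate 1 or BMP7 replicate 3 (adjusted p up to 0.0775), nor for *Psmb10* without Ctrl replicate 2 or BMP7 replicate 4 (up to 0.0723). *Oas3* lost its call without Ctrl replicate 2, BMP7 replicate 3 or BMP7 replicate 4 (up to 0.0998), and *Fcgrt* without Ctrl replicate 1, BMP7 replicate 1 or BMP7 replicate 3 (up to 0.239). *Ticam1* lost it without any Ctrl replicate or BMP7 replicate 3 (up to 0.164). With 1 library left out, *Slfn2* kept its call only without BMP7 replicate 1 (otherwise up to 0.125), *Ddx60* only without BMP7 replicate 4 (up to 0.178) and *H2-T22* only without Ctrl replicate 2 (up to 0.213). DESeq2 did not call *Ddx60* (adjusted p = 0.0635) or *H2-T22* (0.0694), and edgeR with RLE scaling did not call *H2-T22* (0.0525).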

How the data were processed

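The labels' treatment put the 6 RNA libraries of HC11 cells into groups of 3 with BMP7 and 3 without it (Ctrl). The authors aligned read pairs with subjunc, counted fragments on exons with featureCounts (version 2.0.1 in the file header, without regard to strand, leaving out fragments that mapped to several places or genes) and deposited these counts without normalization, with each gene's exon length. The header names an mm39 annotation, and the submitters' processing notes name mm10 and mm39, so the build of the alignment is not certain.

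The members and all lists were chosen with earlier results of these data known. All 39 members were accounted for. Named with values were the members called, 12 members chosen for their role, and from each further list the genes called (at most 6, by the size of the log2 fold change). A further gene of this rule is not reported here. Other members and markers were named after their values were seen. Counts were tested in R 4.3.3 with edgeR 4.0.16 (its expression filter, TMM, quasi-likelihood test), with Benjamini-Hochberg adjustment over 15733 genes, calls needing an adjusted p under 0.05 and a fold over 1.2. The SE was taken from the log2 fold change and the F statistic of the test. CPM is scaled after TMM with no prior count, and the exact permutation tests (two-sided) and the differences from the Ctrl mean used log2 CPM with a prior count of 2. Common biological variation was 0.0696. Total counts were 14607938 to 23748970 per library, and genes with few counts have wide intervals. The replicates of each group differed by more than sampling noise (chi-square per degree of freedom 5.00 to 11.8). Alternatives were DESeq2 1.42.0, RLE and upper-quartile scaling, other filters and fold thresholds, each library left out, and BMP7 replicate 1 alone. The scripts were tested on simulated data. Exon overlap came from the deposited annotation. Copies were searched with BLAST 2.17.0 in GENCODE vM21 (GRCm38), and promoters came from RefSeq on GRCm38.p6, neither of which is the build of the counts.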

Additional observations from a re-analysis of the deposited data

How the results depend on the processing

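The count of members lower (8) was 8 with DESeq2, RLE scaling, upper-quartile scaling, at least 10 counts in every library or no fold threshold, and 9 with no filter on low counts. Over all genes, 739 to 1040 were called lower in these fits, of 14262 to 29894 tested. It was 2 members at a fold above 1.5 (*Oasl2* and *Xaf1*), by construction, against 304 of 15733 genes. For BMP7 replicate 1 alone against Ctrl, with fewer samples, the median log2 fold change was -0.30 over members and -0.0059 over all genes. Leaving out 1 library gave 4 members (without Ctrl replicate 3, against 698 of 16095 genes) to 9 (without BMP7 replicate 1, against 902 of 16155). Without Ctrl replicate 2 it gave 5, against 563 of 16041. The count of members higher (0) was 0 to 1 when a library was left out and 0 in every other alternative. Of the further pathway genes, 8 were higher, 4 at a fold above 1.5 and 6 to 9 without 1 library, against 942, 476 and 723 to 1081 of all genes. Lower were 18, 15 with DESeq2, 7 at a fold above 1.5 and 10 to 15 without 1 library, against 846, 739, 304 and 563 to 902 of all genes. The count of 10 arose without Ctrl replicate 1 and without BMP7 replicate 3. *Parp14* and *Ddx58* were called in each of the 12 alternative fits. *Isg15*, close to 0, ranged from -0.15 to 0.11 without 1 library and turned positive without Ctrl replicate 1 (0.038), Ctrl replicate 3 (0.073) or BMP7 replicate 1 (0.11), and *Stat2* and *H2-K1* turned to 0.047 and 0.067 for BMP7 replicate 1 alone. The cause of these was not tested. The members' median log2 fold change was -0.30 to -0.22 in all fits. No paired analysis was possible because the BMP7 columns are numbered 1, 3 and 4 and could not be matched to the replicate numbers of the labels. Depth limits genes such as *Isg15*, *Ifit1*, *Nlrc5* and those not tested, and 3 libraries a group leave 4 residual degrees of freedom.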
